A study of Mus musculus with 4 samples.

Results

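The 7 genes described here encode MEIS, PBX and PKNOX transcription factors and were taken by symbol from the 24454 genes of a count table of mouse hearts. They are *Meis1*, *Meis2*, *Meis3*, *Pbx2*, *Pbx3*, *Pknox1* and *Pknox2*, a list of TALE genes tied to the exit of heart muscle cells from the cell cycle, with no measured value in the rule. All 7 passed the filter on low counts that left 14266 genes for testing. RNA-seq was done on hearts at postnatal day 7 (P7), and the 4 libraries comprise WH7 with WH8 from Ctrl mice and WH9 with WH10 from miR-128OE mice. According to the methods of the study, Ctrl mice carried the *miR-128* TetRE transgene alone, and miR-128OE mice carried it with the *α-MHC*-tTA driver, so that *miR-128* was overexpressed in cardiomyocytes (CMs) when doxycycline was absent. The doxycycline schedule of these hearts is not given in the sources used here. Both groups therefore shared the TetRE transgene, and the tTA activator was present in miR-128OE hearts only. All mice were on a C57BL/6 background. The sources used here do not give the number of mice behind a library. The p-values therefore judge differences against the spread between these libraries, estimated in part over all genes. The comparison asks which genes differ between miR-128OE and Ctrl hearts. The precursor gene *Mir128-2* had 0 counts in WH7 and WH8, 2 in WH9 and 10 in WH10, and *Mir128-1* had 0 in every library. These counts do not give the level of mature *miR-128*.

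MEIS, PBX and PKNOX proteins belong to the TALE class of homeodomain proteins, named for an extended amino acid loop within the homeodomain. A MEIS or PKNOX protein (PKNOX proteins are also called PREP) pairs with a PBX protein, which helps to hold PBX in the nucleus, and the pair often binds DNA together with a HOX protein. In the mouse heart, *Meis1* is known as a regulator of the postnatal arrest of CM division, since its loss prolongs the period in which CMs divide, and it is known to activate genes of cyclin-dependent kinase (CDK) inhibitors.

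Because the transgene encodes *miR-128*, the sequence of this microRNA and the matching sites in the 7 genes are shown before the values. A microRNA pairs with messenger RNA mainly through its seed, bases 2 to 8. The mature strand is given as in RefSeq (GRCm38.p6), with the seed in capitals.
miR-128-3p: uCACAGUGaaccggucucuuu

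A site was counted where the 3′UTR held CACTGTG (7mer-m8, opposite bases 2 to 8), ACTGTGA (7mer-A1) or both combined (8mer, CACTGTGA). Of the 7 genes, 4 carried at least 1 site in their longest 3′UTR in GENCODE M21 of GRCm38. Among the 13465 tested genes with an annotated 3′UTR, 33.2% carried a site, and 10.3% had more than 1. The median 3′UTR length was 1375 nucleotides, and these shares were not matched to length. *Meis1* had 1 site in a 3′UTR of 5687 nucleotides, *Meis2* had 1 in 1486 and *Meis3* had 1 in 656. *Pknox1* had 2 in 2729 nucleotides, of which 1 was an 8mer, a form that 6.60% of genes carried. *Pbx2*, *Pbx3* and *Pknox2* had 0. The sites are printed 5′ to 3′ on the transcript strand, with the bases that match in capitals and their flanks in lower case.
Meis1, 7mer-m8: cagtcatggcaCACTGTGtcctatcttagc
Meis2, 7mer-A1: cttgtatgaggACTGTGAcgttatgttaaa
Meis3, 7mer-A1: cccagcctctgACTGTGAccaccagccttg
Pknox1, 8mer: tatgcaatatgCACTGTGAcccttgcggct
Pknox1, 7mer-m8: ggctgacgggcCACTGTGtagcctgctggg

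The matching bases of *Meis1* lie at chr11:18880469-18880475 on the minus strand, and those of *Meis2* at chr2:115863135-115863141 on the minus strand. The plus-strand sites are at chr7:16186074-16186080 for *Meis3*, and at chr17:31607372-31607379 and chr17:31607404-31607410 for *Pknox1*. Not all annotated transcripts hold them. A site of any of these forms was present in 3 of 6 annotated 3′UTRs of *Meis1* and 4 of 6 of *Meis2*. The same held for 3 of 4 of *Meis3* and 1 of 10 of *Pknox1*. Whether each was the site printed above was not checked. Counts were made per gene, so the use of these 3′UTRs was not measured. A match is a description of the sequence and does not show that *miR-128* acts there.

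Library totals ranged between 8096870 and 14359838 counts, and each of the 7 genes had between 65 and 629 counts in every library. In all, 31.5% of the 14266 tested genes differed between the conditions at an adjusted p-value under 0.05 (quasi-likelihood test of edgeR, Benjamini-Hochberg adjustment), with 16.5% higher and 15.0% lower in miR-128OE hearts. In 68.1% of tested genes the libraries of the conditions did not overlap. With total counts in place of the trimmed mean of M values (TMM) as scaling, the median over all tested genes moved from -0.014 to -0.11 on the log2 scale, and higher genes made up 35.4% of the calls in place of 52.3%. The condition coincided with the sex of the mice. *Xist*, transcribed from the inactive X chromosome, had at least 11339 counts in each Ctrl library and at most 132 in each miR-128OE library. The Y-linked *Ddx3y* had at most 13 against at least 1442. An effect of sex, of the tTA activator or of *miR-128* cannot be told apart in these libraries.

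Of the 7 genes, 0 were higher and 1, *Meis1*, was lower in miR-128OE hearts, by the edgeR test. That is 14.3% lower, against 15.0% of all tested genes. At an unadjusted p under 0.05 the counts were also 0 and 1, and DESeq2 called 0 in either direction. The median difference over the 7 was -0.13 on the log2 scale, and that over all tested genes -0.014. The libraries of the conditions did not overlap for 4 of the 7, *Meis1*, *Meis2*, *Meis3* and *Pknox1*, against the 68.1% of all tested genes. These shares are near or below the background and are no result about the family.

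*Meis1* (Entrez Gene 17268) lies on chromosome 11 from 18879817 to 19018985, on the minus strand. Its raw counts were 504 in WH7, 335 in WH8, 367 in WH9 and 430 in WH10. It shares 1029 exon bases with *Gm37818* and 896 with the antisense *Gm16140*, for which no counts were analysed here. Scaled for library size by TMM factors, these were 461 and 473 normalized counts in Ctrl and 363 and 362 in miR-128OE hearts. Both miR-128OE libraries were thus below both Ctrl libraries, and the gap between conditions was wider than that between replicates. The mean fell from 467 ± 8.89 (SD, n = 2) to 363 ± 1.20 (SD, n = 2) normalized counts, a level 22.3% lower. On the log2 scale the difference was -0.36 (SE 0.10, 95% confidence interval -0.59 to -0.14, edgeR adjusted p = 0.0222). In order of p-value, *Meis1* ranked 3269 of 14266 genes.

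The call of *Meis1* depended on the test and on single libraries, whereas its direction held in all settings tried. Across 13 alternative settings the log2 fold change stayed between -0.46 and -0.26, and 8 of them kept the adjusted p under 0.05. It was lost with DESeq2's Wald test (adjusted p = 0.123), with a loess offset on GC and length (edgeR adjusted p = 0.0714, log2 fold change -0.26) and where a change beyond 1.5-fold was tested. Leaving out miR-128OE library WH9 gave an adjusted p of 0.167, and leaving out WH10 gave 0.156, both from edgeR. In these last fits 1 condition had a single library, whose spread was taken to be that of the other condition.

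The other MEIS genes differed in the same direction without passing the test. *Meis2*, known for roles in the neural crest and the cardiac outflow tract, lies on chromosome 2 from 115863064 to 116065839. Raw counts were 401 in WH7, 218 in WH8, 304 in WH9 and 332 in WH10, or 337 ± 41.4 and 290.1 ± 15.4 normalized counts (SD, n = 2 each). The lowest Ctrl library was only slightly above the highest miR-128OE library, with 308 against 301 normalized counts. Its log2 fold change was -0.23 (95% confidence interval -0.51 to 0.06, edgeR adjusted p = 0.199), and it ran from -0.34 without WH8 to -0.088 without WH7. *Meis3*, known for hindbrain patterning, lies on chromosome 7 from 16175090 to 16186504. Raw counts of 191, 131, 173 and 187 in WH7 to WH10 gave 179.9 ± 7.41 and 164 ± 9.90 normalized counts (SD, n = 2 each). The log2 fold change was -0.13 (95% confidence interval -0.45 to 0.20, edgeR adjusted p = 0.528), and -0.051 without WH10. These intervals still hold decreases of the size measured for *Meis1*.

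**Figure D1:**
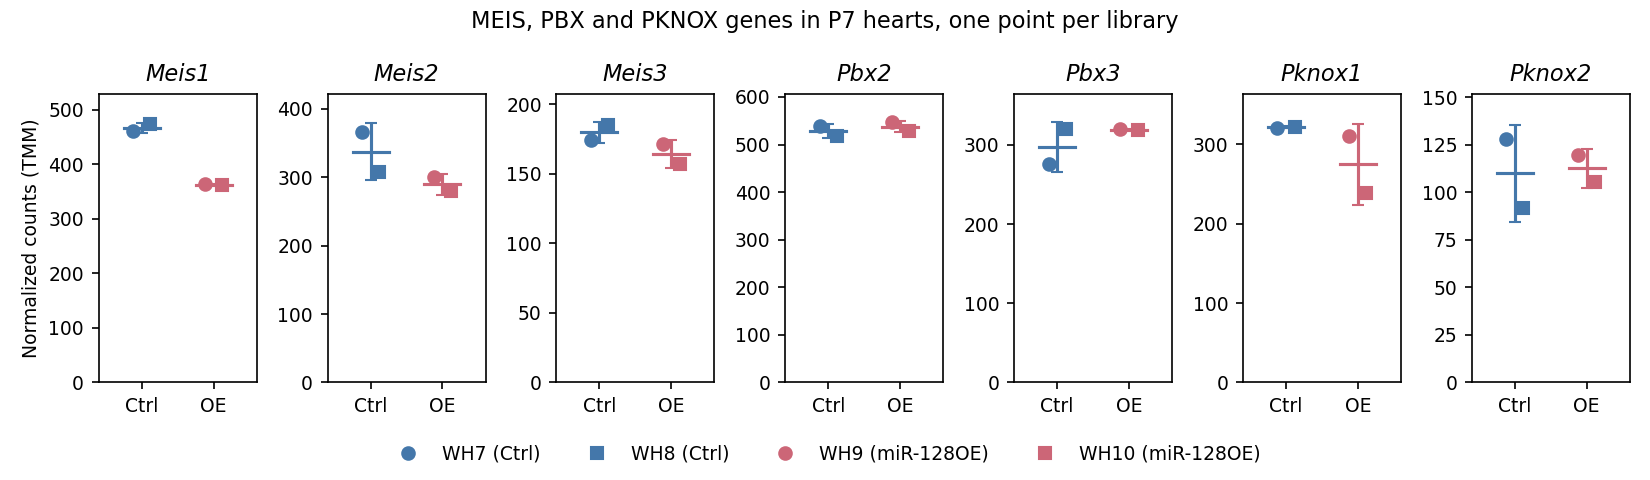
Normalized counts (TMM scaling, vertical axes from 0, a separate scale for each gene) of the 7 genes in the 4 libraries of P7 hearts, with 1 point per library, the mean as a horizontal line and the SD (n = 2) as a bar; OE stands for miR-128OE. For *Meis1* the Ctrl libraries lie at 461 and 473 and the miR-128OE libraries at 363 and 362, whereas for *Pbx2*, *Pbx3* and *Pknox2* the conditions overlap.

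For the PBX genes the conditions overlapped, and neither passed the test. *Pbx2* (chromosome 17, 34591266 to 34597400), a broadly expressed PBX gene, was counted 590, 366, 552 and 629 times in WH7 to WH10. These correspond to 528 ± 15.7 and 538 ± 12.4 normalized counts (SD, n = 2 each), and the conditions overlapped. The log2 fold change was 0.023 (95% confidence interval -0.19 to 0.23, edgeR adjusted p = 0.873) and turned to -0.077 with total counts as scaling. For the value as reported, increases beyond 1.17-fold lay outside the interval. Its exons share 227 bases with those of *Gpsm3* on the same strand, a gene with 80 to 109 counts in Ctrl and 75 to 87 in miR-128OE libraries, and the handling of reads in shared exons is not given in the sources used here. *Pbx3* (chromosome 2, 34171457 to 34373142) contributes with other PBX genes to outflow tract development. Its raw counts in WH7 to WH10 were 301, 226, 323 and 379, or 297 ± 31.2 and 319 ± 0.727 normalized counts (SD, n = 2 each). The Ctrl library WH8 was level with both miR-128OE libraries, and the log2 fold change was 0.11 (95% confidence interval -0.16 to 0.38, edgeR adjusted p = 0.518).

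The products of the PKNOX genes compete with MEIS for PBX, and for each gene the libraries of 1 condition were far apart. *Pknox1* (chromosome 17, 31564734 to 31607693), the gene with an 8mer site, was counted 351 times in WH7, 228 in WH8, 314 in WH9 and 284 in WH10. It shares 155 exon bases with the antisense *AC166172.4*, for which no counts were analysed here. The Ctrl libraries had 321 and 322 normalized counts, the miR-128OE library WH9 was near them at 311, and WH10 stood lower at 239. The difference thus rested mainly on 1 library, with a log2 fold change of -0.23 (95% confidence interval -0.55 to 0.09, edgeR adjusted p = 0.247), and it ranged from -0.42 without WH9 to -0.032 without WH10. *Pknox2* (chromosome 9, 36890982 to 37147407) had the lowest counts of the family, namely 140 in WH7, 65 in WH8, 121 in WH9 and 125 in WH10. Its Ctrl libraries, at 128 and 91.9 normalized counts, enclosed the miR-128OE libraries at 119.8 and 105. The log2 fold change of 0.0076 therefore carries a wide 95% confidence interval of -0.46 to 0.47 (edgeR adjusted p = 0.982), and with total counts as scaling it was -0.093.

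To compare levels between genes, CPM values (counts scaled to a common library size with TMM factors) were divided by the length of all exons in kilobases (RPKM). *Pbx2* had the highest level of the 7, at 12.3 ± 0.367 RPKM in Ctrl (SD, n = 2). It was followed by *Meis3* at 4.82 ± 0.198, *Pbx3* at 4.13 ± 0.434, *Pknox1* at 3.94 ± 0.0109, *Meis1* at 3.77 ± 0.0717, *Meis2* at 2.38 ± 0.292 and *Pknox2* at 0.904 ± 0.210 RPKM. Of the neighbors in this order, *Pbx3* and *Pknox1* overlapped between Ctrl libraries, while the others did not. No test was made between genes, and 2 libraries do not settle the order of close levels such as *Pknox1* and *Meis1*. An SD from 2 libraries can also be small by chance. In miR-128OE hearts *Meis1* had 2.92 ± 0.00968 RPKM (SD, n = 2), and its share of the summed RPKM of the 7 genes was 9.26% and 9.83% in WH9 and WH10, against 11.5% and 11.9% in WH7 and WH8. *Pbx2* made up between 37.5% and 41.6% in the 4 libraries. The order depends on the length used, since the longest transcript in place of all exons put *Pbx3* (8.84 RPKM) above *Meis3* (7.94 RPKM) in Ctrl.

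Ratios of counts within a library do not depend on the scaling of libraries. For each *Pbx2* count there were 0.854 and 0.915 *Meis1* counts in Ctrl and 0.665 and 0.684 in miR-128OE libraries, a log2 difference of -0.39. For *Pbx3* the ratios were 1.67 and 1.48 against 1.136 and 1.135 (log2 difference -0.47). *Meis1* was also lower against *Meis3* (-0.23) and *Pknox2* (-0.42) without overlap of the conditions. Taken as *Pknox2* over *Meis1*, the last difference ran from 0.16 without WH8 to 0.67 without WH7. Against *Meis2* and *Pknox1* the ratios overlapped. Of all 21 pairs of the 7 genes, 11 did not overlap between conditions. These included pairs without *Meis1*, such as *Meis2* to *Pbx3* and *Pbx3* to *Pknox1*, so this trait was not particular to *Meis1*. With 2 libraries against 2, the smallest p that the exact two-sided permutation test can give is 0.333, which the ratios of *Meis1* to *Pbx2*, *Pbx3*, *Meis3* and *Pknox2* reached (adjusted to 0.636 over 21 pairs of the 7 genes). This design cannot pass a threshold of 0.05 by that test.

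**Figure D2:**
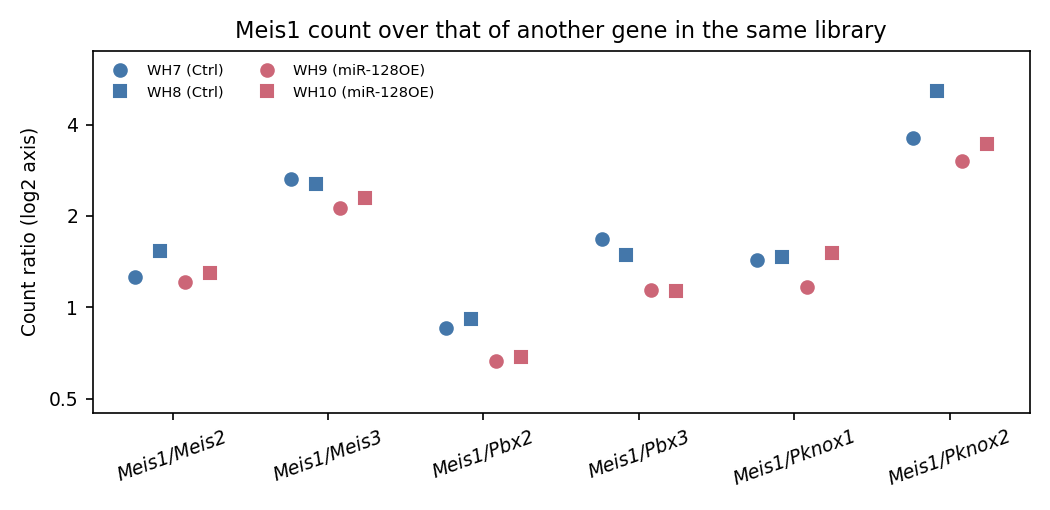
Count of *Meis1* divided by the count of each of the other 6 genes in the same library, on a log2 axis, with 1 point per library of P7 hearts. Against *Pbx2* and *Pbx3* both miR-128OE libraries lie below both Ctrl libraries, and against *Pknox1* the conditions overlap.

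By the largest difference in centered log2 CPM over the 4 libraries, *Lsm6* (0.0104) was among the genes most like *Meis1* of 12945 whose average log2 CPM reached 1. As many as 90 genes lay within 0.05. *Lsm6* encodes a protein of RNA processing.

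Among the other TALE genes and the PBX-binding protein *Pbxip1*, 10 of 12 were tested, of which 1 was higher and 3 were lower. Their median log2 fold change was -0.14. *Pbxip1*, whose product binds PBX and limits its binding to DNA with HOX partners, rose from 2561 ± 205 to 3286 ± 60.4 normalized counts (SD, n = 2 each), or by 0.36 on the log2 scale (edgeR adjusted p = 0.0112). Its adjusted p was 0.0876 without WH9 and 0.0967 without WH10.

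The 3 lower genes were Iroquois genes, TALE genes that pattern the ventricle and its conduction. *Irx3* fell from 442 ± 62.5 to 250.3 ± 12.4 normalized counts (SD, n = 2 each), a log2 difference of -0.81 (edgeR adjusted p = 0.00178), and 12 of 13 alternatives kept the call. *Irx4*, a ventricular gene, fell by 0.63 (edgeR adjusted p = 0.0113) and *Irx5* by 0.57 (edgeR adjusted p = 0.029) on the same scale. Of the alternatives, 10 of 13 kept the call of *Irx4* and 8 of 13 that of *Irx5*, whose adjusted p was 0.119 with DESeq2. Without WH8 the difference of *Irx4* was -0.35, and its call was lost without WH9 (edgeR adjusted p = 0.0831) or WH10 (0.0573). That of *Irx5* was lost without WH8 (edgeR adjusted p = 0.0926), WH9 (0.123) or WH10 (0.156). *Irx2*, with 112 to 145 counts, differed by -0.58 (edgeR adjusted p = 0.0907), and *Irx1*, with 44 to 75 counts, by 0.19 (edgeR adjusted p = 0.576). For *Irx2* the value ran from -0.26 without WH8 to -0.87 without WH7 (edgeR adjusted p = 0.00531), and it passed the test without a filter on low counts (edgeR adjusted p = 0.00909). That of *Irx1* was 0.046 without WH7 and 0.33 without WH8. The repressors *Tgif1* and *Tgif2* had log2 fold changes of -0.09 and 0.0027. *Pbx4* had 3 to 18 counts, and its 95% confidence interval of -0.88 to 1.77 on the log2 scale leaves its direction unresolved. *Irx6* (0 to 4 counts) and *Mkx* (4 to 12 counts) were too low to test.

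**Figure D3:**
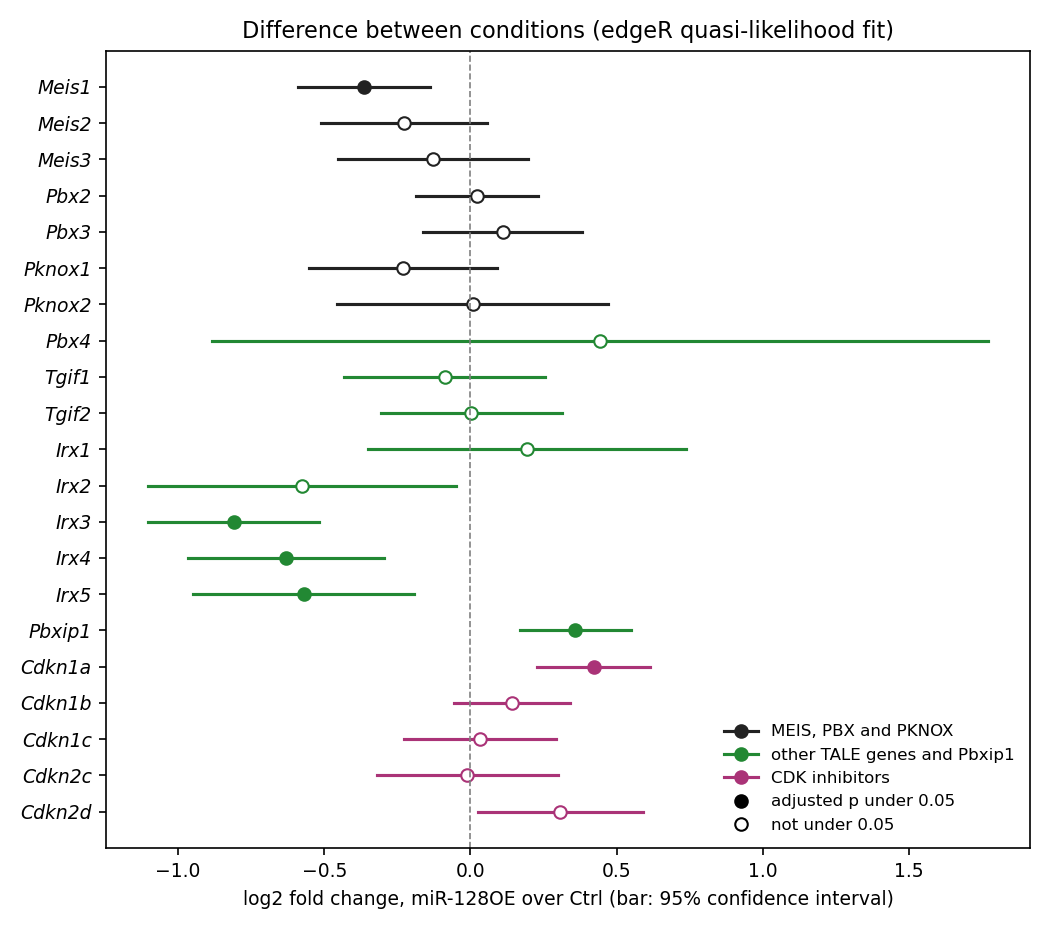
Log2 fold change of miR-128OE over Ctrl hearts (horizontal axis) for the 7 MEIS, PBX and PKNOX genes, other tested TALE genes with *Pbxip1*, and the tested CDK inhibitors, with 95% confidence intervals from edgeR; filled points passed an adjusted p of 0.05. *Meis1* at -0.36 is the filled point among the 7, and *Irx2* (open), *Irx3*, *Irx4* and *Irx5* lie lower still.

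HOX genes, the third partners on DNA, were low in these hearts. Of 39 HOX genes in the table, 12 were tested and 27 were too low, of which 8 had 0 counts in every library. *Hoxb13*, a known partner of *Meis1* in CMs that is named here after its values were seen, was among those with 0 counts in all 4 libraries, a level below the 3 counts taken as the detection floor (0.371 CPM in the shallowest library, counting error only). The edgeR test called 0 of the 12 and DESeq2 also 0, while 1 had an unadjusted edgeR p under 0.05 in each direction. Their median log2 fold change was 0.15, positive for 7 of 12. The HOX genes with most counts were *Hoxb3*, with 71 to 105 counts in Ctrl and 116 to 130 in miR-128OE libraries (log2 fold change 0.19, edgeR adjusted p = 0.445), and *Hoxb4*, with 63 to 74 and 69 to 76 (log2 fold change -0.22, adjusted p = 0.532).

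CDK inhibitors are known targets of *Meis1*, chiefly *Cdkn1a* (p21) and the neighbors *Cdkn2a* and *Cdkn2b*. *Cdkn1a* was counted 671 times in WH7, 466 in WH8, 851 in WH9 and 1020 in WH10. It rose from 636 ± 31.8 to 850.2 ± 10.8 normalized counts (SD, n = 2 each), a log2 difference of 0.42 (SE 0.09, edgeR adjusted p = 0.00603), and both miR-128OE libraries exceeded both Ctrl libraries. Without WH9 its adjusted p was 0.0578 and without WH10 it was 0.0585 (edgeR). *Cdkn2a* (5 to 8 counts) and *Cdkn2b* (2 to 11 counts) were below the filter in these hearts. *Cdkn2d* differed by 0.31 on the log2 scale (edgeR adjusted p = 0.0913) and *Cdkn1b* by 0.14, where *Cdkn2d* went to 0.18 without WH7 and to 0.43 without WH8 (edgeR adjusted p = 0.0196), while *Cdkn1c* (0.033) and *Cdkn2c* (-0.010) were near 0 with overlapping libraries. Of the 5 tested CDK inhibitors, edgeR called 1 higher and 0 lower, as did DESeq2, and 0 were lower at an unadjusted p under 0.05. Their median was 0.14.

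Among 19 genes that drive the cell cycle, edgeR called 7 lower and 0 higher (median log2 fold change -0.28). At an unadjusted p under 0.05, 1 was higher, and DESeq2 called 5 lower and 0 higher. *Mki67* (-1.15), *Top2a*, a topoisomerase of dividing cells (-0.68), and *Cdk6* (-0.56) had the smallest p-values, while the abundant cyclins *Ccnd1* and *Ccnd2* had -0.27 (edgeR adjusted p = 0.0369) and 0.08 (adjusted p = 0.473). *Meis1* is also known to activate hypoxia factors in blood stem cells, where it favors glycolysis. Among 14 genes of hypoxia and glycolysis, edgeR called 10 higher and 0 lower (median 0.50), with 0 lower at an unadjusted p under 0.05 and 0 lower by DESeq2. *Ldha*, which encodes lactate dehydrogenase, rose by 0.77 on the log2 scale, *Pkm* by 0.75 and *Aldoa* by 0.72. *Hif1a*, named after its values were seen, had 0.29 (edgeR adjusted p = 0.0456).

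Calcineurin, a calcium-dependent phosphatase, is known to act on the MEIS1 and HOXB13 pair in CMs. Of 11 genes of calcineurin and its substrates, edgeR called 5 higher and 1 lower (median 0.33). The higher genes were the calcineurin regulators *Rcan2* (0.69) and *Rcan1* (0.64), the subunit gene *Ppp3r1* (0.50), and *Nfatc1* (0.62) and *Ppp3cc* (0.53), the last pair named after their values were seen. *Nfatc2* was the lower gene (-0.62), also named after its values were seen. *Ppp3ca*, the most highly counted catalytic subunit, differed by 0.0025 (edgeR adjusted p = 0.985).

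**Figure D4:**
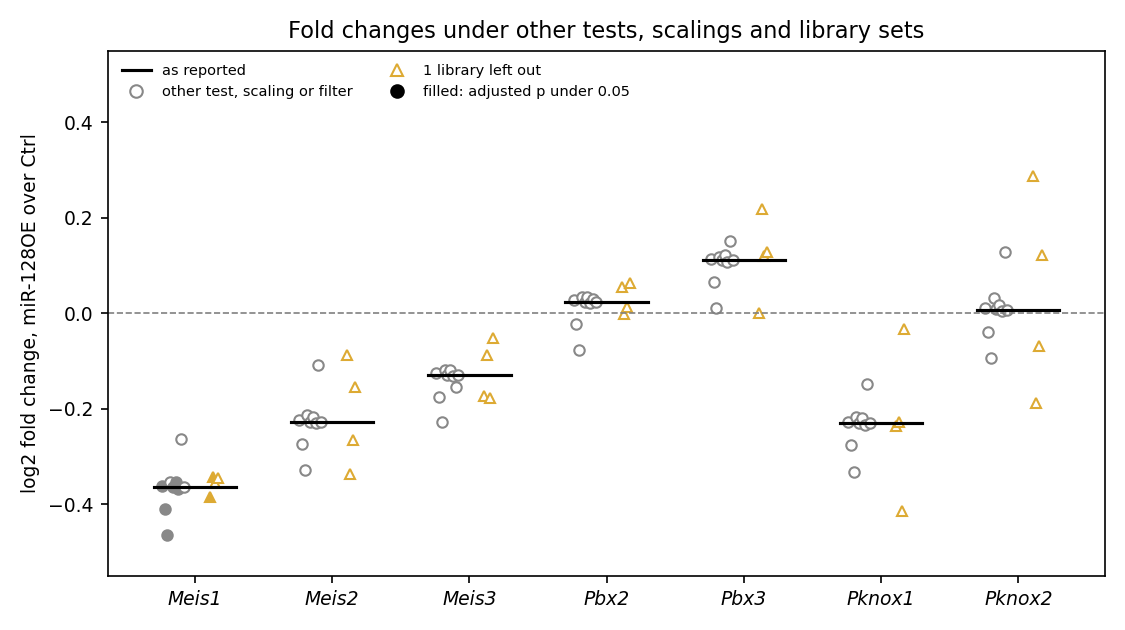
Log2 fold change of miR-128OE over Ctrl for the 7 genes (vertical axis) as reported (black line), under 9 other tests, scalings or filters (grey circles) and with each library left out (yellow triangles); filled symbols passed an adjusted p of 0.05. *Meis1* stays between -0.46 and -0.26 and is filled in 8 of 13 settings, whereas *Pknox2* spans -0.19 to 0.29.

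Hearts were sequenced as bulk tissue, so fewer cells of a type and less RNA per cell cannot be told apart. Of 10 CM markers, 4 were higher and 2 were lower, and their summed level was 51540 to 56490 CPM in Ctrl and 63690 to 64520 CPM in miR-128OE libraries. All 10 were detected, led by *Myh6* and *Myl2*. Summed endothelial markers, led by *Cdh5* and *Egfl7*, were 2151 to 2160 CPM against 2132 to 2233 CPM (2 of 10 higher, 2 lower). Smooth muscle and pericyte markers, led by *Acta2* and *Rgs5*, had 2086 to 2198 CPM against 2634 to 2971 CPM (3 of 10 higher, 1 lower). Their median log2 fold change was only 0.047, positive for 5 of 10. *Acta2* alone rose from 7098 ± 401 to 13617 ± 1606 normalized counts (SD, n = 2 each), so the sum does not describe the list as a whole. Neural and Schwann cell markers were low, at 68.9 to 73.0 CPM against 59.8 to 61.2 CPM (2 of 8 tested higher, 1 lower). The neuronal gene *Th*, named after its values were seen, had at most 4 counts. Fibroblast markers summed to 6553 to 10080 CPM against 8887 to 9606 CPM (1 of 10 higher, 1 lower), leukocyte markers to 94.4 to 123 CPM against 97.6 to 100.7 CPM (0 of 9 called by edgeR or DESeq2, 1 at an unadjusted p under 0.05) and epicardial markers to 165 to 243.5 CPM against 182 to 197 CPM (0 of 9 called by either, 2 at an unadjusted p under 0.05). The median log2 fold change was 0.23 for CM markers (8 of 10 positive) and 0.27 for fibroblast markers (8 of 10). It was -0.12 for endothelial (3 of 10 positive), -0.11 for neural and Schwann cell (3 of 8) and -0.11 for leukocyte markers (2 of 9). Epicardial markers had a median of -0.62 (3 of 9 positive), against -0.014 over all tested genes. The part of these cell populations in the *Meis1* difference was not tested.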

How the data were processed

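The deposited values are raw counts per gene and library, which the authors made by filtering reads on quality, aligning them with TopHat2 to mm10 (also called GRCm38) and counting them on known genes with Bioconductor packages. Gene models, strand and the treatment of reads that fit several genes are not given in the sources used here, so overlapping and antisense genes are uncertain. Of 24454 Entrez Gene identifiers, 24381 were matched to a symbol in RefSeq (GRCm38.p6) or GENCODE M21.

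The main test was edgeR 4.0.16 in R 4.3.3, after the negative binomial model that the study names, with filterByExpr (minimum of 10 counts, total of 15), TMM factors, the quasi-likelihood test and Benjamini-Hochberg adjustment over 14266 genes. Standard errors (SE) were obtained from the log2 fold change and its F value. The 95% intervals use the total degrees of freedom (9.44), of which 7.44 are prior degrees of freedom estimated over all genes. Normalized counts are TMM-scaled at the mean effective library size. Replicates differed by more than sampling noise (chi-square per degree of freedom 12.4 for Ctrl and 5.82 for miR-128OE). The script was tested on simulated data, where false calls exceeded the nominal rate when dispersion was made to vary by gene, so adjusted p-values, that of *Meis1* included, may be too small. Intervals and floors cover counting error only where they rest on counts alone, since reads carried no molecular identifiers.

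The family and all gene lists (TALE, HOX, CDK inhibitor, cell cycle, hypoxia and glycolysis, calcineurin and cell type markers) were chosen with earlier results of these data known, so a list is described by its counts and median and was not tested as a set. *Muc16*, on the epicardial list, was not analysed here. All 7 genes, the TALE genes and CDK inhibitors are named, together with the 3 called genes of smallest p and the 2 of highest mean count in each other list, and the 2 markers of highest count at most. Genes sharing exon bases with one of the 7, and the 2 genes most like a called member of the 7, are also named. The sex-linked genes and the *miR-128* precursor genes are named as checks, and others are said to be named after their values were seen. A few genes that the rule names are left out of the text and the plots. Sites were sought in GENCODE M21 transcripts with Python 3.11.15. Protein sequences were not used here. Alternatives were DESeq2 1.42.0, other scalings, filters, thresholds and lengths, a loess offset (span 0.5) for GC content and length, and each library left out.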

Additional observations from a re-analysis of the deposited data

How the results depend on the processing

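Of the 7 genes, 1 was called lower, and this count was 0 with DESeq2's Wald test, with the offset for GC content and length and with a change beyond 1.5-fold tested (edgeR's glmTreat). It ranged from 0 to 1 with a library left out, being 0 without WH9 or without WH10, and 0 genes were called higher in any setting. *Meis1*, *Meis2*, *Meis3* and *Pknox1* kept their direction in all 13 settings. In the other 6 lists 17 genes were higher and 11 lower, which became 0 and 1 with the 1.5-fold requirement and ranged from 10 to 19 and from 3 to 15 with a library left out. Calls over all genes went from 4490 to 1564 without WH9, 2285 without WH10 and 465 with the 1.5-fold requirement.

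Some directions reversed. With upper-quartile factors these were *Pbx2* (-0.023), *Pknox2* (-0.040), *Tgif2* (-0.044) and *Cdkn1c* (-0.014), and with total counts *Pbx2* (-0.077), *Pknox2* (-0.093), *Tgif2* (-0.097) and *Cdkn1c* (-0.068), scalings that lower all fold changes. Without a filter *Cdkn2c* reversed (0.0011), and with the offset for GC content *Cdkn1c* did (-0.054), and the cause of these was not tested. With a library left out, ranges that crossed 0 were -0.0017 to 0.064 for *Pbx2*, -0.00010 to 0.22 for *Pbx3*, -0.19 to 0.29 for *Pknox2*, -0.20 to 0.056 for *Tgif1*, -0.016 to 0.047 for *Tgif2*, -0.052 to 1.62 for *Pbx4*, -0.13 to 0.24 for *Cdkn1c* and -0.18 to 0.16 for *Cdkn2c*. The log2 difference in the ratio of *Pknox1* to *Meis1* was 0.13 and ranged from -0.060 to 0.31.

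With the longest transcript as length, Ctrl levels were 5.25 RPKM for *Meis1*, 5.21 for *Meis2*, 7.94 for *Meis3*, 14.6 for *Pbx2*, 8.84 for *Pbx3*, 6.42 for *Pknox1* and 2.57 for *Pknox2*. Total counts gave 3.90 for *Meis1*, 12.8 for *Pbx2* and 4.07 for *Pknox1*. The number of genes with a seed match was 4 with all 3′UTRs and with 6mer matches. No paired analysis was possible because the labels give the groups no shared replicate numbers. *Pbx4*, with 3 to 18 counts, had the widest interval of the tested TALE genes, and *Irx6* and *Mkx* could not be tested at this depth.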
